A study of Mus musculus with 2 samples.

Results

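The genes described here encode enzymes, carriers and kinases of mitochondrial fuel oxidation. They are 40 genes chosen by symbol, 22 of fatty acid oxidation, 11 of the citric acid cycle and 7 of pyruvate entry into the cycle. Of these, 36 had a probe set annotated to them alone, among 19938 such genes in all, and the probe set with the highest mean of both arrays stood for a gene that had several. Cpt1b was read only by a probe set that it shares with another gene and is given apart. Acsl1, Ucp2 and Mpc2 were not analysed here.

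RNA came from regenerating tibialis anterior muscle of Mef2a knockout (Mef2a -/-) and wild type (Mef2a +/+) mice of the strain 129Sv/C57BL6, aged 2 to 4 months and of both sexes. Every animal had received 50 µl of 10 µM cardiotoxin, a snake venom peptide that kills muscle fibres, in the right muscle 7 days earlier, and no uninjured muscle was analysed here. Total RNA of 5 animals per genotype was pooled and hybridised to 1 array per pool, so that no spread between animals or arrays can be estimated, and no test or p-value is given. MEF2A is a transcription factor of muscle genes, and how its gene is disrupted is not stated in the labels. The Mef2a probe set read 9.06 in the pool labelled knockout (KO for short) and 8.92 in the wild type pool (WT) on the log2 scale. A probe set outside a deleted part checks nothing, so the genotype of each pool rests on its label.

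As background, fatty acids that enter a muscle fibre are bound by a carrier protein, activated to acyl-CoA and moved into mitochondria by the carnitine shuttle. There, acyl-CoA dehydrogenases, hydratases, hydroxyacyl-CoA dehydrogenases and thiolases shorten them in repeated rounds to acetyl-CoA. Pyruvate from glycolysis enters through the mitochondrial pyruvate carrier and becomes acetyl-CoA through the pyruvate dehydrogenase complex, which its kinases switch off. The citric acid cycle oxidises acetyl-CoA from both sources, and oxidative muscle fibres and the heart are rich in these enzymes.

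Most of these genes read slightly lower in the labelled knockout pool. Of the 36 measured members, 32 were lower and 4 higher, and their median log2 difference was -0.20 (1.15-fold). Single members lay between -0.78 and 0.12. Among all 11787 measurable genes, those whose higher value reached 4.40, the median of the table, 44.5% were lower and the median difference was 0.03. All 36 members reached this floor, the lowest single value being 6.05. RMA, the method that made the values, sets both arrays to nearly the same distribution, so these are differences relative to other genes.

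A 1.2-fold limit was added because earlier results of these data showed small differences in these genes, so its counts are a description only. It was passed downwards by 13 members, against 14.2% of the measurable genes, and upwards by 0 members, against 21.5%. At 1.5-fold, 1 member (Ucp3) was lower, against 1.90% of the measurable genes, and none was higher, against 6.45%. The members are mostly genes of high signal, and the background was therefore also taken over the 1186 measurable genes with a mean of at least 8. Of these, 45.3% were lower and 12.9% at least 1.2-fold lower, while of the 26 members with such a mean all were lower and 9 at least 1.2-fold lower. The spread of the difference from gene to gene, as a robust SD, was 0.14 over the members and 0.28 over measurable genes, which is no measure of the error of a single value.

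**Figure D1:**
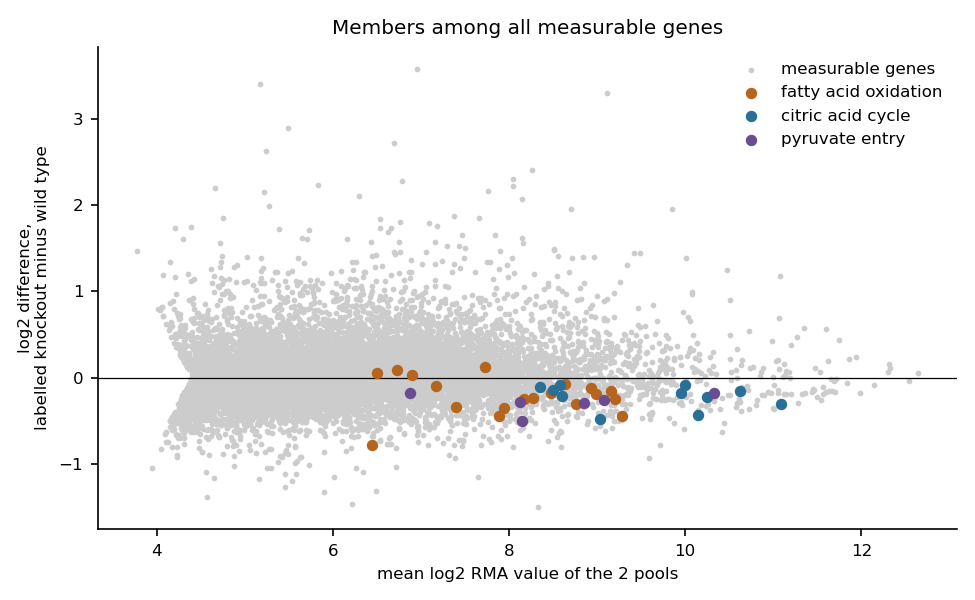
Each point is a gene at its mean log2 RMA value over both pools (horizontal axis) and its log2 difference, labelled knockout minus wild type (vertical axis), with measurable genes in grey and members in colour. All 26 members with a mean of at least 8 lie below the zero line, and the 4 above it (Cpt1a, Cpt2, Echs1 and Eci2) are among those of lower signal. Cpt2 and Eci2 turn below zero when the loess trend is removed.

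Markers of cell types also differed between the pools. All 20 markers of muscle fibres reached the floor. Of 20 fibre markers, 19 were lower in the labelled knockout pool, against 44.5% of measurable genes, with a median difference of -0.19. At least 1.2-fold lower were 7 (35%), against 14.2% of measurable genes. The largest differences were those of Myh2, a myosin of fast oxidative fibres (8.78 in KO, 9.40 in WT, 1.53-fold lower), the myoglobin gene Mb (10.18 in KO, 10.71 in WT, 1.45-fold lower) and the calcium release channel gene Ryr1 (-0.31). All 20 macrophage markers were at least 1.2-fold higher, against 21.5% of measurable genes, with a median of 1.12. Those furthest up were Msr1 (4.31-fold), Gpnmb (3.89-fold) and Itgam (3.48-fold). The summed linear signal of the 20 macrophage markers was 13466 in the labelled knockout pool and 5662 in the wild type pool, and none was at 0. Fewer fibres in the muscle, a larger share of RNA from other cells and less of these transcripts per fibre cannot be told apart in such bulk RNA. The part of each in the results below was not tested.

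**Figure D2:**
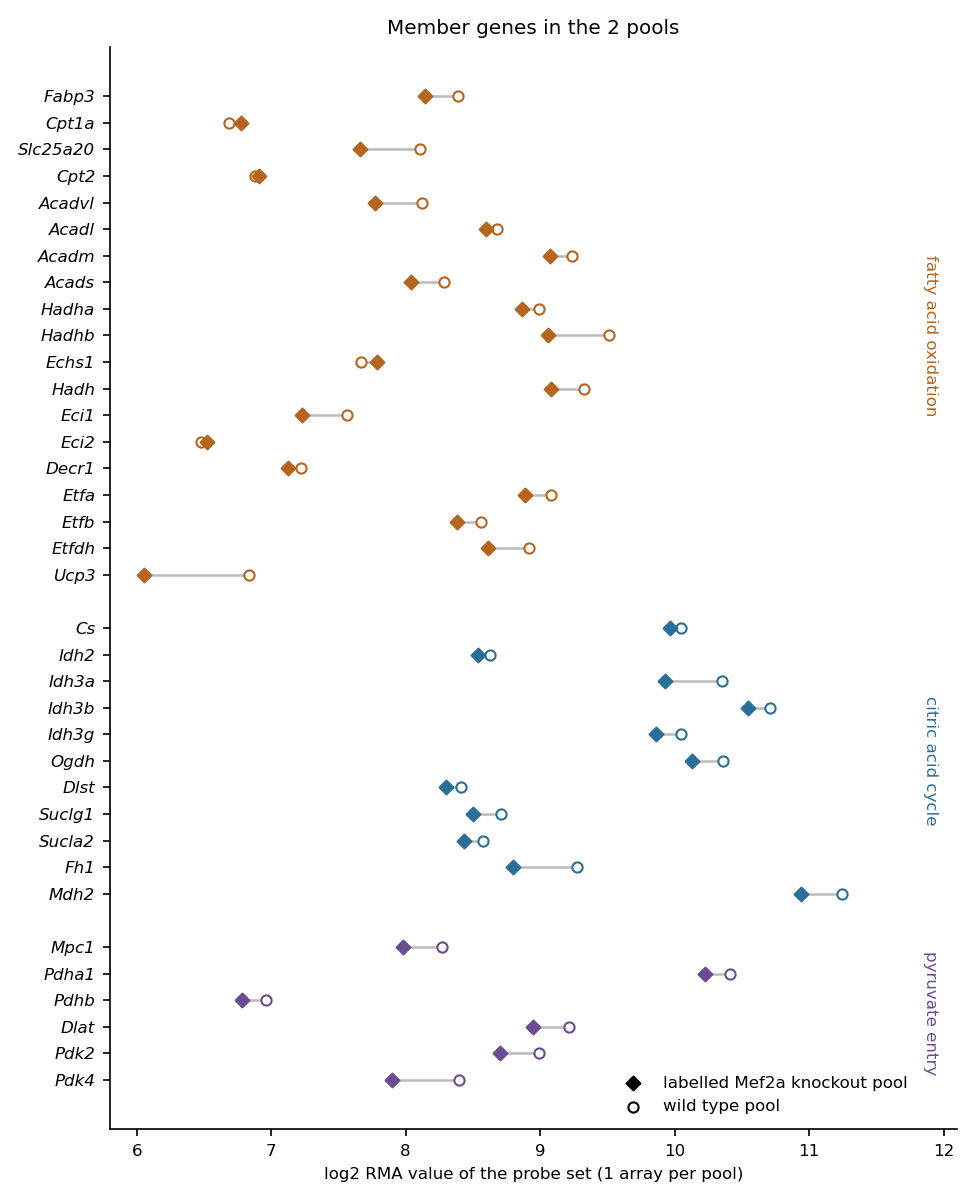
The log2 RMA value of each of the 36 members is shown in the labelled Mef2a knockout pool (filled diamonds) and the wild type pool (open circles), 1 array each, with genes in rows by group. The diamonds lie left of the circles for all members except Cpt1a, Cpt2, Echs1 and Eci2. The widest gap is that of Ucp3.

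In fatty acid oxidation, 15 of 19 measured members were lower, 6 of them at least 1.2-fold (31.6%, against 14.2% of measurable genes). Their median difference was -0.19. The steps of uptake and transport were uneven. Fabp3, the fatty acid binding protein of heart and skeletal muscle, read 8.15 in the labelled knockout pool and 8.39 in the wild type pool, a difference of -0.24. A further probe set of Fabp3 read 7.84 in KO and 8.19 in WT, a difference of -0.34. RefSeq lists a pseudogene, Fabp3-ps1, whose transcripts or sequence could share this signal, so the size of the difference is uncertain.

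Within the carnitine shuttle, the enzymes and the carrier between them differed. Cpt1a, the carnitine palmitoyltransferase of the outer membrane that is best known from liver, read 6.77 in the labelled knockout pool and 6.68 in the wild type pool, a difference of 0.09. Its muscle counterpart Cpt1b shares a probe set with Gm44502, which RefSeq also calls Chkb-Cpt1b. That probe set read 7.90 in the labelled knockout pool and 8.54 in the wild type pool, 1.56-fold lower, and cannot be assigned to either transcript. Slc25a20, which exchanges acylcarnitine for carnitine across the inner membrane, was 1.37-fold lower, at 7.66 in the labelled knockout pool and 8.11 in the wild type pool. Cpt2, which regenerates acyl-CoA in the matrix, read 6.91 in KO and 6.88 in WT, and its difference of 0.03 became -0.03 when a loess trend on mean signal was removed. The carrier and the shared Cpt1b probe set were thus the low readings of the shuttle, with Cpt1a and Cpt2 close to equal in both pools.

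The acyl-CoA dehydrogenases, which open each round of oxidation, were all lower by small amounts. Acadvl, which acts on very long chains at the inner membrane, read 7.77 in the labelled knockout pool and 8.12 in the wild type pool, a difference of -0.35. The differences were -0.08 for the long-chain enzyme Acadl (8.60 in KO, 8.68 in WT), -0.16 for the medium-chain enzyme Acadm (9.08 in KO, 9.23 in WT) and -0.24 for the short-chain enzyme Acads (8.04 in KO, 8.29 in WT). The sizes followed no order of chain length.

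The genes of the mitochondrial trifunctional protein gave unequal readings. This complex carries out the later steps of each round on long chains, with Hadha encoding its hydratase and dehydrogenase subunit and Hadhb its thiolase subunit. Hadha read 8.86 in the labelled knockout pool and 8.99 in the wild type pool, a difference of -0.13. Hadhb read 9.06 in KO and 9.51 in WT, a difference of -0.45, and its further probe set 8.84 in KO and 9.25 in WT, a difference of -0.41. RefSeq lists a pseudogene of Hadhb, Hadhb-ps, which could share this signal. The pair is shown by sequence because the genes lie head to head and are read from opposite strands, with 272 bases between their annotated starts, so that their promoter windows overlap. The overlap in the RefSeq table (GRCm38.p6, chr5:30155003-30155230, plus strand, Hadhb's direction) runs as follows, in lower case throughout since it holds no match to the motifs searched below, and its GC content is 57.0%.
Hadha and Hadhb: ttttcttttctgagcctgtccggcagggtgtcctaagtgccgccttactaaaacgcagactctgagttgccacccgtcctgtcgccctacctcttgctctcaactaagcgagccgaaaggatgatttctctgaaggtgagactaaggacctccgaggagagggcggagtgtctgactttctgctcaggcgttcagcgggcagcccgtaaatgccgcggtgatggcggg

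Among the enzymes for shorter chains and for double bonds, the readings went both ways. Echs1, the short-chain enoyl-CoA hydratase, read 7.78 in the labelled knockout pool and 7.67 in the wild type pool, and its difference of 0.12 was the highest of all members. Hadh, the short-chain hydroxyacyl-CoA dehydrogenase, read 9.08 in the labelled knockout pool and 9.33 in the wild type pool, and its difference of -0.25 lay just short of the 1.2-fold limit of 0.26. Eci1, an enoyl-CoA isomerase that moves double bonds into place, was 1.26-fold lower (7.23 in KO, 7.56 in WT). The related isomerase Eci2 read 6.53 in the labelled knockout pool and 6.48 in the wild type pool, a difference of 0.05 that became -0.02 without the loess trend. Decr1, the dienoyl-CoA reductase for polyunsaturated chains, differed by -0.10 (7.13 in KO, 7.22 in WT).

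The electron transfer flavoprotein, which passes electrons from the acyl-CoA dehydrogenases to the respiratory chain, was lower in each part. Its subunit genes Etfa (8.89 in the labelled knockout pool and 9.08 in the wild type pool) and Etfb (8.38 in KO, 8.56 in WT) differed by -0.19 and -0.18. Etfdh, the dehydrogenase that hands the electrons to ubiquinone, read 8.61 in the labelled knockout pool and 8.92 in the wild type pool, a difference of -0.30.

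Ucp3 had the largest difference of all members. It encodes an inner membrane carrier of skeletal muscle and brown fat whose expression is known to follow fatty acid supply. Ucp3 read 6.05 in the labelled knockout pool and 6.83 in the wild type pool, 1.72-fold lower, and 0.585% of measurable genes had a lower difference. Of 11 adipocyte and brown fat markers, 6 reached the floor (Adipoq, Plin1, Cidec, Retn, Fabp4 and Pparg), and their median difference was -0.02. The brown fat genes Ucp1, Cidea and Elovl3 did not reach it, so this median says nothing of brown fat. Cidec, a lipid droplet gene, differed by -0.39, and the adipokine genes Retn and Adipoq by 0.14 and 0.10. Ucp1, the uncoupling protein of brown fat, was below the floor in both pools (3.61 in the labelled knockout pool and 3.12 in the wild type pool).

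In the citric acid cycle all 11 members were lower, 3 of them at least 1.2-fold (27.3%, against 14.2% of measurable genes). Their median difference was -0.19, with a range from -0.48 to -0.08. Citrate synthase, Cs, whose activity is widely used as a gauge of mitochondrial content, read 9.96 in the labelled knockout pool and 10.04 in the wild type pool, a difference of -0.08. The subunits of the NAD-dependent isocitrate dehydrogenase differed unequally. Its catalytic subunit Idh3a read 9.93 in the labelled knockout pool and 10.36 in the wild type pool, a difference of -0.43. Idh3b (10.55 in KO, 10.71 in WT) and Idh3g (9.86 in KO, 10.05 in WT) differed by -0.16 and -0.19. Idh2, the NADP-dependent mitochondrial enzyme, read 8.54 in KO and 8.62 in WT, a difference of -0.08.

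The steps from 2-oxoglutarate to succinate showed only small differences, none past 1.2-fold. Ogdh, the oxoglutarate dehydrogenase itself, read 10.13 in the labelled knockout pool and 10.36 in the wild type pool, a difference of -0.23, and Dlst, the succinyltransferase of the same complex, differed by -0.11 (8.30 in KO, 8.41 in WT). Suclg1, the alpha subunit of succinyl-CoA ligase, differed by -0.21 (8.50 in KO, 8.71 in WT) and Sucla2, its ATP-forming beta subunit, by -0.15 (8.43 in KO, 8.58 in WT). The last steps of the cycle differed by more. Fh1, fumarate hydratase, was 1.40-fold lower, at 8.79 in the labelled knockout pool and 9.28 in the wild type pool. Mdh2, the mitochondrial malate dehydrogenase, read 10.94 in the labelled knockout pool and 11.25 in the wild type pool, a difference of -0.31.

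All 6 measured members of pyruvate entry were lower, 4 of them at least 1.2-fold (66.7%, against 14.2% of measurable genes). Their median difference was -0.28. Mpc1, a subunit of the mitochondrial pyruvate carrier, read 7.98 in the labelled knockout pool and 8.27 in the wild type pool, a difference of -0.29. RefSeq lists a pseudogene, Mpc1-ps, that could share the signal of this probe set. In the pyruvate dehydrogenase complex, the E1 subunits Pdha1 (10.23 in the labelled knockout pool and 10.41 in the wild type pool) and Pdhb (6.78 in KO, 6.96 in WT) each differed by -0.18. The E2 acetyltransferase Dlat read 8.95 in the labelled knockout pool and 9.21 in the wild type pool, and its difference of -0.26 lay just past the 1.2-fold limit.

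Both measured kinases that switch the complex off were lower too. Pdk4, which is induced by fasting and fatty acids in muscle, read 7.90 in the labelled knockout pool and 8.40 in the wild type pool, 1.41-fold lower, and 3.32% of measurable genes had a lower difference. Pdk2, the widely expressed kinase, read 8.70 in the labelled knockout pool and 8.99 in the wild type pool, a difference of -0.29. Of the kinases outside the member list, Pdk1 differed by -0.23 (6.43 in KO, 6.66 in WT) and Pdk3 by 0.30 (6.21 in KO, 5.90 in WT). Of the 4 kinase genes, Pdk3 alone read higher in the labelled knockout pool.

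**Figure D3:**
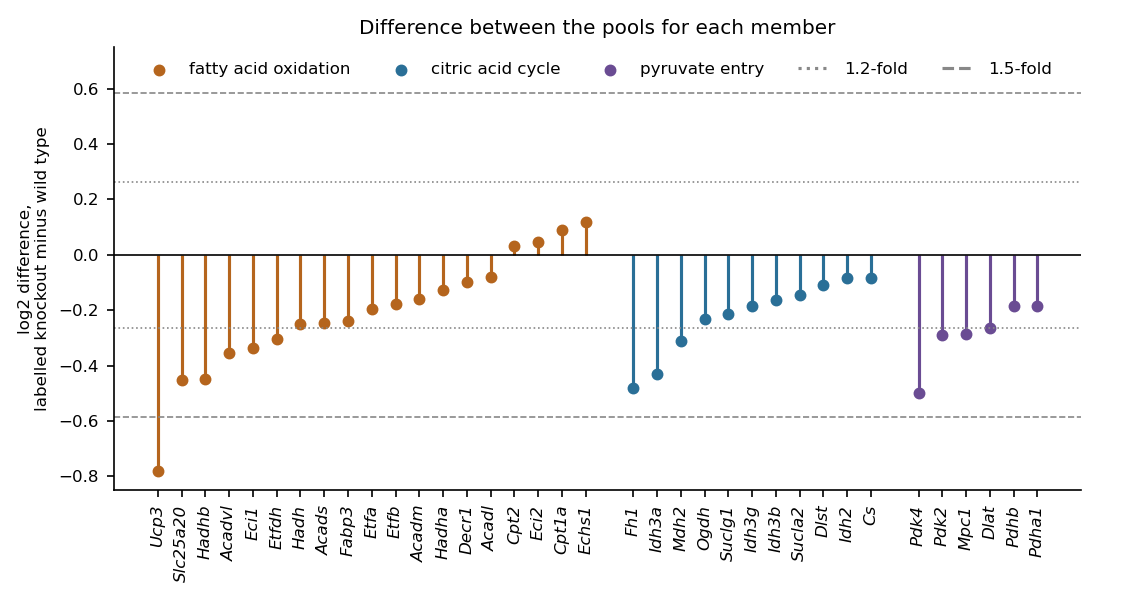
Log2 difference, labelled knockout minus wild type, of each member, sorted within its group and with dotted and dashed lines at 1.2-fold and 1.5-fold. Ucp3 alone passes the 1.5-fold line, and the 4 members above zero are all of fatty acid oxidation, 2 of which (Cpt2 and Eci2) turn below zero when the loess trend is removed.

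Promoter windows were searched for motifs of factors known to act on oxidative genes, since most members were lower together. A window holds 250 bases before and 50 from a gene's annotated start, and the RefSeq table had at least 1 window for 34 of the 36 members, leaving out Idh3a and Decr1. The letters AGGTCA, the hexamer bound by nuclear receptors such as the PPARs and the estrogen-related receptors, were found on either strand in 10 of the 34 members (29.4%), against 18.1% of 27025 genes. They were in 4 of the 12 members with a window that were at least 1.2-fold lower and in 6 of the other 22. These 6 were Acadm, Cpt1a, Echs1, Idh3g, Ogdh and Sucla2, of which Cpt1a and Echs1 read higher in the labelled knockout pool. The longer estrogen-related receptor element TCAAGGTCA, which contains the hexamer, was in none of the 34 members and in 0.466% of all genes. The MEF2 motif was in none of the 34 and in 3.70% of all genes. These are matches of letters, which may or may not be bound, and a window without a match says nothing of sites elsewhere.

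The windows of those 4 members, which were at least 1.2-fold lower, are shown with the hexamer in capitals. They are written in each gene's own direction, so that TGACCT marks a match on the opposite strand. Members that hold the hexamer but were not at least 1.2-fold lower are not shown. Ucp3 holds the hexamer at 2 places, which begin 149 and 44 bases before the annotated start. In Acadvl, Fh1 and Mpc1 it begins 87, 188 and 244 bases before it. The windows are those of GRCm38.p6 at chr7:100472741-100473040 (plus strand) for Ucp3, chr11:70015379-70015678 (minus strand) for Acadvl, chr1:175625586-175625885 (minus strand) for Fh1 and chr17:8284204-8284503 (plus strand) for Mpc1, which has a further window without a match.
Ucp3: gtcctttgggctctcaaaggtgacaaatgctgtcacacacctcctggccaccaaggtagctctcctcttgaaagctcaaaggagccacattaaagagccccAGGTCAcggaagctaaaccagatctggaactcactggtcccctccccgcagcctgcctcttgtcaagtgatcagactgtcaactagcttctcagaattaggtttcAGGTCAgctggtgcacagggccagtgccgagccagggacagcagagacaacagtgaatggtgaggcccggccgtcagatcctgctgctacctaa
Acadvl: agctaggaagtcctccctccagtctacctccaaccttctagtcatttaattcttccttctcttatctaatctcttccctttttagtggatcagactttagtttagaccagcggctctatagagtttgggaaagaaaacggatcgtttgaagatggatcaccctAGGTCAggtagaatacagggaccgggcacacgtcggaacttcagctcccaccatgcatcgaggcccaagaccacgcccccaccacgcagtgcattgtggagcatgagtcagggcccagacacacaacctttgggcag
Fh1: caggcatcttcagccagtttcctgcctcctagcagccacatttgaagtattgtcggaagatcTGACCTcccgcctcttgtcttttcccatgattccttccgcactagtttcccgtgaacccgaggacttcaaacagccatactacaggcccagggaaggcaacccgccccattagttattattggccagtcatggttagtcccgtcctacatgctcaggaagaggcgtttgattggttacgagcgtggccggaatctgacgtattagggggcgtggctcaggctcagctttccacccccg
Mpc1: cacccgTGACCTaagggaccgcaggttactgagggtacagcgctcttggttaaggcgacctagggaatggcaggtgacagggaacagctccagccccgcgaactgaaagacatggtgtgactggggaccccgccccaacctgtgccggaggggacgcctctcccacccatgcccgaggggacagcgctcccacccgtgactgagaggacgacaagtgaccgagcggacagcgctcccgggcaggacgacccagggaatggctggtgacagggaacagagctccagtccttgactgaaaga
The windows of Slc25a20, Hadhb and Pdk4, which were lower by more than Acadvl, held no match to the hexamer.

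Other genes of the same pathways, listed with linked genes of uptake and lipid synthesis, were more mixed than the members. Among all measurable genes, 14.2% were at least 1.2-fold lower and 21.5% at least 1.2-fold higher. Of 35 measurable further genes of fatty acid uptake and oxidation, 23 were lower, 8 of them at least 1.2-fold, and 6 were at least 1.2-fold higher, with a median of -0.08. Fabp5, a fatty acid binding protein of skin and macrophages, was 2.98-fold higher, at 7.95 in the labelled knockout pool and 6.38 in the wild type pool. The macrophage markers had a median of 1.12, and whether the Fabp5 difference goes with theirs was not tested. Acsl5, an acyl-CoA synthetase, was 1.71-fold higher (6.73 in KO, 5.96 in WT), while the related synthetase Acsl6 was 1.42-fold lower (5.65 in KO, 6.15 in WT). Chosen after their values were seen, the acetyl-CoA carboxylases also parted. Acacb, the mitochondrial form whose product inhibits CPT1, differed by -0.49 (6.49 in the labelled knockout pool and 6.98 in the wild type pool), and Acaca, the cytosolic form of fatty acid synthesis, by 0.42 (7.24 in KO, 6.83 in WT).

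Peroxisomal oxidation had 4 of 10 measurable genes lower (40%, against 44.5% of all measurable genes) and a median of 0.02. This median became -0.01 after centring on the median of measurable genes and -0.04 without the loess trend. Abcd2, a peroxisomal transporter of very long chains, was 1.68-fold lower, at 6.59 in the labelled knockout pool and 7.34 in the wild type pool. Acox3, an acyl-CoA oxidase, differed by 0.37 and Scp2, a lipid carrier and thiolase, by 0.26. The ketone body enzymes Oxct1 and Acat1, both measurable, differed by -0.14 and -0.15.

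Around the citric acid cycle, 16 of 24 measurable further genes were lower, against 44.5% of all measurable genes, with a median of -0.12. At least 1.2-fold lower were 6 (25%), against 14.2% of measurable genes, and 5 were at least 1.2-fold higher, against 21.5%. Me3, a mitochondrial malic enzyme, was 1.80-fold lower, at 5.73 in the labelled knockout pool and 6.58 in the wild type pool. Acly, which splits cytosolic citrate for lipid synthesis, was 1.58-fold higher (7.47 in KO, 6.81 in WT), and Slc25a13, an aspartate-glutamate carrier, differed by 0.50. Cytosolic Idh1, chosen after its values were seen, differed by 0.36 (8.03 in KO, 7.67 in WT), against -0.08 for mitochondrial Idh2. Other such pairs, chosen in the same way, were lower in both forms. Cytosolic Mdh1 differed by -0.34, against -0.31 for mitochondrial Mdh2, and cytosolic Got1 by -0.41, against -0.25 for mitochondrial Got2. The genes of succinate dehydrogenase, the cycle enzyme between succinate and fumarate, were all lower and were also chosen after their values were seen. Sdha, Sdhb, Sdhc and Sdhd differed by -0.25, -0.34, -0.25 and -0.24. Genes of this list thus lay on both sides of zero, as did measurable genes as a whole.

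Of 12 measurable further genes of pyruvate handling, 10 were lower, against 44.5% of all measurable genes, and 2 higher, with a median of -0.12. Slc16a3, the lactate exporter of glycolytic fibres also called MCT4, was 1.75-fold lower, at 7.64 in the labelled knockout pool and 8.45 in the wild type pool. Pdpr, a regulatory subunit of pyruvate dehydrogenase phosphatase, differed by -0.40. Dld, the E3 subunit shared by the pyruvate and oxoglutarate complexes, read 9.16 in the labelled knockout pool and 9.21 in the wild type pool, a difference of -0.05.

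Some regulators of these genes were also lower. Of 23 measurable regulators, 15 were lower and 7 higher, with a median of -0.07, and Sirt1 read the same in both pools. Past 1.2-fold, 5 lay on the low side (21.7%), against 14.2% of measurable genes. On the high side there were 0, against 21.5% of measurable genes. Esrra, the estrogen-related receptor that drives mitochondrial genes, was 1.53-fold lower, at 6.09 in the labelled knockout pool and 6.70 in the wild type pool. Its coactivator Ppargc1a was 1.42-fold lower (5.63 in KO, 6.14 in WT), while the related Ppargc1b differed by -0.08. Rxrg, the retinoid X receptor of muscle, was 1.78-fold lower (4.86 in KO, 5.69 in WT). Esrrg differed by -0.26 (5.04 in KO, 5.30 in WT) and Ppard by 0.06. The fatty acid receptor Ppara read 4.49 in KO and 4.59 in WT, near the floor of 4.40. Its difference of -0.11 became -0.04 without the loess trend.

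The median of general mitochondrial genes lay nearer to zero than those of the member groups, but not nearer than that of the regulators. Of 16 measurable genes of import and the mitochondrial membranes, 12 were lower, with a median of -0.11. At least 1.2-fold lower were 2 (12.5%), close to the 14.2% of measurable genes. The mitofusins Mfn2 and Mfn1, which fuse outer membranes, differed by -0.41 and -0.29, and the import receptor Tomm20 by 0.34. Among 4 measurable carriers, Slc25a4, the adenine nucleotide translocator of heart and muscle, differed by -0.26, Slc25a27 by -0.17 and Slc25a30 by 0.32. Whether the lists differ from each other was not tested, since each rests on the same pair of arrays.

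**Figure D4:**
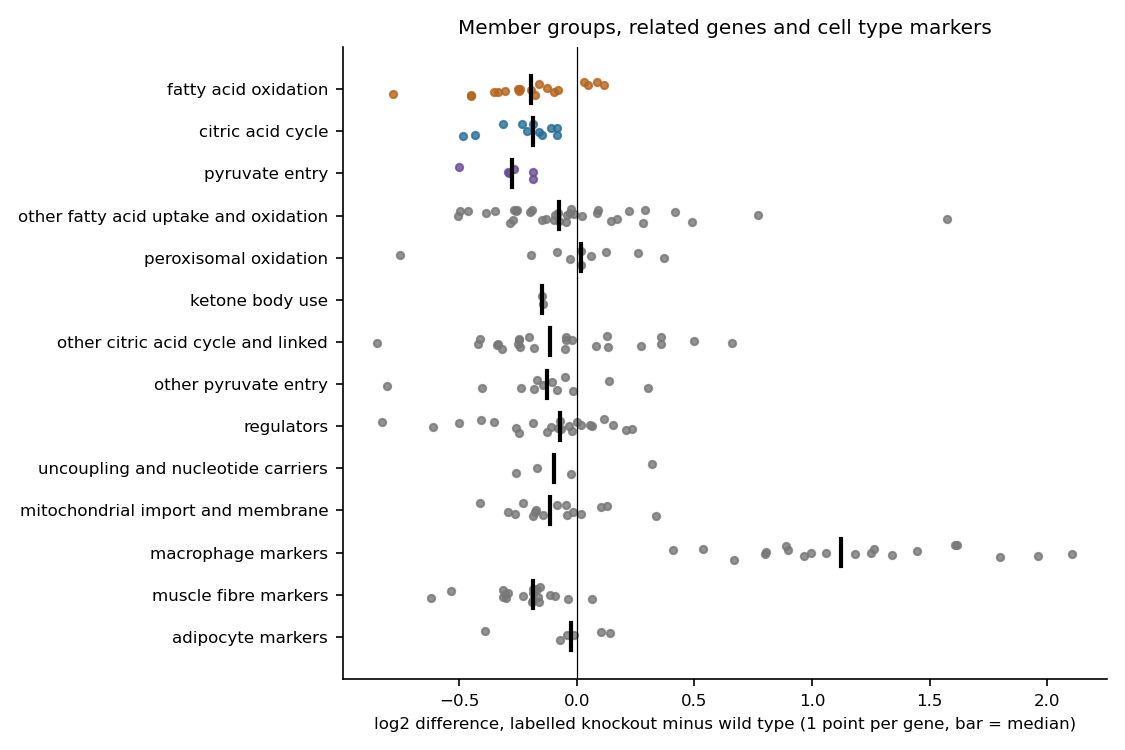
Each point is the log2 difference, labelled knockout minus wild type, of a measurable gene, with a black bar at the median of its list. The medians of fatty acid oxidation and of the citric acid cycle (-0.19 each) lie beside that of the fibre markers (-0.19). That of pyruvate entry (-0.28) lies further below zero. Those of the further pathway genes lie nearer zero, and that of the macrophage markers is at 1.12.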

How the data were processed

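Tibialis anterior RNA, pooled from 5 mice per genotype, was measured on 1 array per genotype. The deposited values are log2 values that the authors made with Affymetrix Expression Console (RMA), per the labels. The sources used here give no version. RMA corrects background, equalises the distributions of the arrays and summarises probes. The sorted values of both arrays lie within 0.139 of each other.

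Of 35557 probe sets, 21789 had 1 gene symbol, 1621 several and 12147 none in the platform annotation. For 21698 of those with 1 symbol the gene was found in RefSeq's GRCm38.p6 table, and 0 symbols changed. Differences are labelled knockout minus wild type, and were computed with numpy 2.4.6 and pandas 2.3.3 under Python 3.11.15. A gene was measurable when its higher value reached 4.40. Limits of 1.2-fold and 1.5-fold replaced a test. The counting was tested on simulated data. The number of arrays limits the precision.

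Members, lists and limits were chosen with earlier results of these data known. Named besides the members are up to 3 measurable genes per list with the largest differences, and 10 genes (regulators, kinases, Dld and Ucp1) fixed by symbol. Acacb, Acaca, Idh1, Mdh1, Got1, Got2, Sdha, Sdhb, Sdhc and Sdhd were chosen after their values were seen. Alternatives were centring on the median, removal of a loess trend (span 0.3, statsmodels 0.14.6), averaging a gene's probe sets, probe sets with several symbols, other floors and other fold limits. Promoter sequences are RefSeq's, of GRCm38.p6.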

Additional observations from a re-analysis of the deposited data

How the results depend on the processing

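The median over all members lay between -0.24 and -0.20, and the medians of the 3 groups moved by less than 0.1. Under centring, loess, averaged probe sets and shared probe sets, no member moved by more than 0.0653 (log2), and only Cpt2 and Eci2 changed sign, both when the loess trend was removed. The count of members at least 1.2-fold lower was 13 as reported, 16 after centring or without the loess trend and 14 with the mean of all probe sets or with shared probe sets allowed. It was 6 at a limit of 1.3-fold. The count at 1.5-fold was 2 with shared probe sets allowed, which adds that of Cpt1b, and 0 at a limit of 2-fold. The share of all genes at least 1.5-fold lower was 3.10% with no floor and 0.187% at 2-fold. The share at least 1.2-fold lower, 14.2% as reported, rose too, to 16.3% after centring and 15.4% without the loess trend. It was 14.1% for averaged probe sets, 14.2% if shared ones were allowed and 7.33% at a limit of 1.3-fold. A change of floor moved this share to 21.0% (no floor) or 10.9% (75th percentile), with 13 members lower in either case. With 1 array per pool, differences of this size cannot be set against an error of their own.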
